A study of Mus musculus with 32 samples.

Results

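The Tcf7l2 locus is a region of 260 kb on mouse chromosome 19, chr19:55780001-56040000 of the build mm9, that holds the transcription factor gene Tcf7l2 and its flanks. Its members are the ATAC-seq peaks with their centres in that region, 88 of the 229137 peaks in the Kupffer and endothelial lists together. The region was chosen by its count of Kupffer-only peaks, which had been seen to be higher in its window chr19:55800001-55900000 than in the other windows of a fixed grid of 100 kb, so that count and everything that follows from it is given as a description without a test. ATAC-seq uses a transposase that cuts and tags open DNA, and a peak is a stretch where the authors called such cuts to be dense. Peaks with at least 1 bp in common with a peak of the other cell type are called shared, and all others Kupffer-only or endothelial-only.

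The study asked how the circadian clock of hepatocytes acts on the other cells of the liver, through mice without the clock repressors REV-ERBα and REV-ERBβ in hepatocytes. Its 32 libraries came from male C57BL/6J mice on normal chow and fall into 8 groups of 4 replicates. Kupffer cells, which are the macrophages resident in liver sinusoids, were taken from REV-ERB a/b knockout mice at ZT22 and ZT10 and from WT mice at ZT22 and ZT10, and liver endothelial cells were taken from the same 4 kinds of mice. ZT is the time in hours after lights on. The deletion is described for adult hepatocytes and not for the cells profiled. The ages of the mice, the way the genes were deleted and the alleles that WT mice carry are not stated in these sources. The files hold 1 list of positions per cell type for all 16 of its libraries, with no value per library, peak height or score. The effects of genotype and time were therefore not analysed here, no value below has a replicate, the read depth is unknown, and the identity of the isolated cells was not checked against marker genes. Where a cell type has no peak, none was called, which does not show that the site was closed.

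Tcf7l2 encodes a transcription factor with an HMG-box DNA-binding domain, one of the TCF/LEF family through which canonical Wnt signalling reaches the genome. When a Wnt ligand is bound at the cell surface, β-catenin accumulates, enters the nucleus and binds TCF/LEF factors at their target genes, while without it the same factors recruit Groucho/TLE co-repressors. In the liver, Wnt ligands from endothelial cells of the central vein maintain the pericentral programme of hepatocytes, in which TCF/LEF factors act with β-catenin. The gene has several promoters and is spliced into many isoforms.

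The RefSeq table at hand gives 2 promoters for Tcf7l2 on the build GRCm38.p6, each from 250 bases before to 50 bases after a start on the + strand. They are printed so that the gene's starts can be found by sequence in any build, with each CG dinucleotide in capitals. Their coordinates belong to another build than the peaks and are not to be set against the peak positions below. No genome of mm9 was used here, so no peak sequence is printed and no peak was assigned to a promoter, exon or intron.
Tcf7l2 promoter 1, GRCm38.p6 chr19:55741560-55741859, + strand: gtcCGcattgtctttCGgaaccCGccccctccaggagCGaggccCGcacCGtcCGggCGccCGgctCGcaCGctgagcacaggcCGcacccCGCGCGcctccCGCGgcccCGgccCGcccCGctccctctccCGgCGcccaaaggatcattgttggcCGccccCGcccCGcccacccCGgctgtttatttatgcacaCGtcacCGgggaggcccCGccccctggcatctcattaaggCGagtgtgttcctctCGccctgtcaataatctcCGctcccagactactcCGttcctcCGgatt
Tcf7l2 promoter 2, GRCm38.p6 chr19:55895071-55895370, + strand: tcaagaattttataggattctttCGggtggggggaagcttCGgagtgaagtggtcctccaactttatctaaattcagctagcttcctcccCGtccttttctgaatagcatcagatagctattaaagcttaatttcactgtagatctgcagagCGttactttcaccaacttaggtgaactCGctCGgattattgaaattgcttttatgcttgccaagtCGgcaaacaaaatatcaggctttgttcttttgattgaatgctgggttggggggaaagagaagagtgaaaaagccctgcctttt

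Promoter 1 held 34 CG dinucleotides and was 70.0% G or C, whereas promoter 2 held 7 and was 42.0% G or C. The median of the 32851 promoters in the table was 7 CG, and 7.73% of them held at least as many as promoter 1. The gene therefore has a CG-rich and a CG-average start in that table. Neither held the letters CTTTGAT, a core TCF/LEF motif, on either strand, against 3.73% of all promoters in the table. The table places the long non-coding RNA genes Gm31734 and Gm52391 directly before and after Tcf7l2 on the chromosome. The nearest protein-coding genes are Vti1a, which encodes a SNARE protein of vesicle transport, on the side of lower coordinates, and Habp2, which encodes a serine protease of blood plasma made in the liver, on the other side.

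Open chromatin at the locus was called mainly in Kupffer cells. The Kupffer list held 75 peaks in the region and the endothelial list 13, or 5.77 Kupffer peaks for each endothelial one, against 1.69 on chromosome 19 and 1.51 over the whole lists. Kupffer peaks numbered 288.5 per Mb in the locus, against 72.9 on chromosome 19 and 53.4 over the whole list. Endothelial peaks of both classes together numbered 50.0 per Mb, against 43.2 and 35.4, so as a whole they were not sparser here than elsewhere. The endothelial-only peaks alone, 2 in the locus, numbered 7.69 per Mb, against 17.0 on chromosome 19 and 14.8 over the whole list. Of the 75 Kupffer peaks, 64 or 85.3% were Kupffer-only (95% exact Clopper-Pearson interval 75.3% to 92.4%), against 60.9% of the 137684 peaks of the whole Kupffer list. Of the 13 endothelial peaks, 2 or 15.4% were endothelial-only (1.92% to 45.4%), against 41.7% of the 91453 peaks of the whole endothelial list. These intervals treat peaks as independent and cover counting error only. They do not allow for the choice of the region by its count of Kupffer-only peaks. The other 11 Kupffer peaks and 11 endothelial peaks overlapped each other one to one, so that the locus held 77 distinct sites. Kupffer peaks covered 5.94% of its bases and endothelial peaks 1.07%. There were 5.82 Kupffer-only peaks for each shared Kupffer peak, against 1.56 in the whole list.

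**Figure D1:**
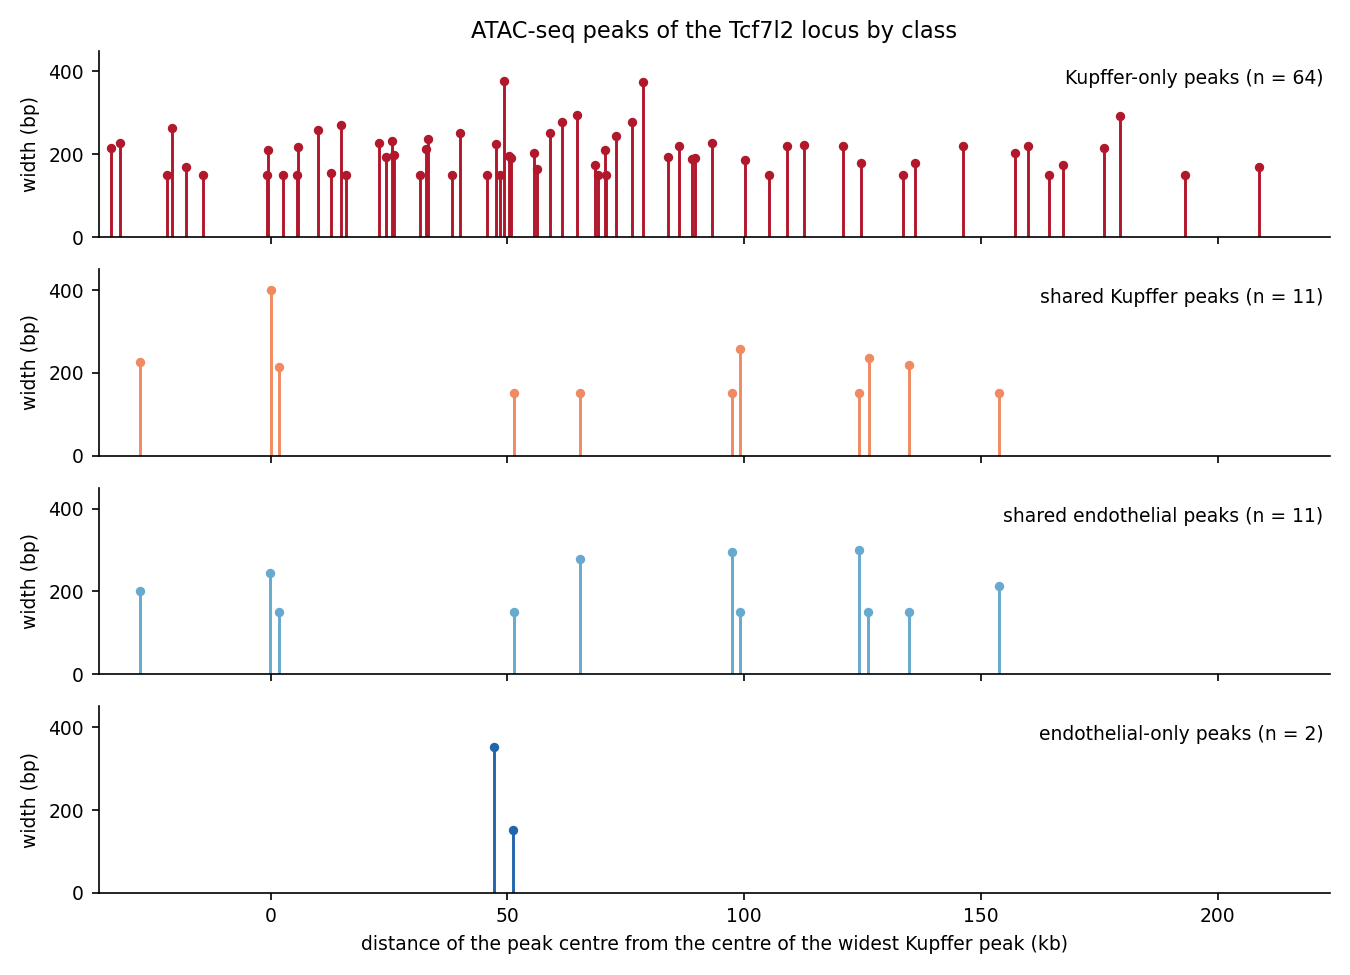
Each stem is 1 peak of the locus, placed on the x axis by the distance of its centre (kb) from the centre of the widest Kupffer peak, with its width (bp) on the y axis. From top to bottom are the 64 Kupffer-only, 11 shared Kupffer, 11 shared endothelial and 2 endothelial-only peaks. Kupffer-only peaks occur along nearly the whole region, and both endothelial-only peaks lie close to each other in its denser part.

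Kupffer-only peaks were spread along the locus but were most frequent below its middle. Of 26 bins of 10 kb, 2 near the upper edge had none, and the median bin had 2. The 3 fullest bins held 6 each and began at 55840001, 55860001 and 55880001. In the window chr19:55800001-55900000 there were 37 Kupffer-only and 4 shared Kupffer peaks, and neighbouring Kupffer-only centres were a median of 1893.5 bp apart. In the next 100 kb there were 20 Kupffer-only and 6 shared Kupffer peaks, with a median of 3665 bp between Kupffer-only centres. The 20 kb before that window held 5 Kupffer-only peaks and 1 shared Kupffer peak. The last 40 kb held 2 Kupffer-only peaks, at chr19:56009400-56009550 and chr19:56024896-56025064, and no endothelial peak.

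The edges of the region differ from each other. The 100 kb of lower coordinates beside it held 17 Kupffer-only peaks and 1 shared Kupffer peak, beside 2 endothelial-only and 1 shared endothelial peak. The 100 kb of higher coordinates held 1 Kupffer-only peak and 3 endothelial-only peaks. The last Kupffer peak before the lower edge, chr19:55777373-55777635, had its centre 2.50 kb outside, and the first one within it, chr19:55782540-55782755, had its centre 2.65 kb inside. At the upper edge the last Kupffer peak inside was 15.02 kb from the edge, and the next, chr19:56044420-56044644, was 4.53 kb beyond it. With Kupffer centres up to 20 kb apart joined in a chain, the chain that contains the locus ran over 432.7 kb, from 55611948 to 56044644. It held 113 Kupffer peaks, of which 99 were Kupffer-only and 75 lay inside the region, beside 19 endothelial peaks. It ended there, with 98.1 kb to the next Kupffer peak. The chain depends on its step. With 15 kb it ran over 302.8 kb, from 55706716 to 56009550, with 91 Kupffer peaks, and so passed the lower edge and ended before the upper one. With 10 kb its longest piece, with 58 Kupffer peaks, ran over 137.0 kb, from 55815454 to 55952428, and lay wholly inside the region.

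**Figure D2:**
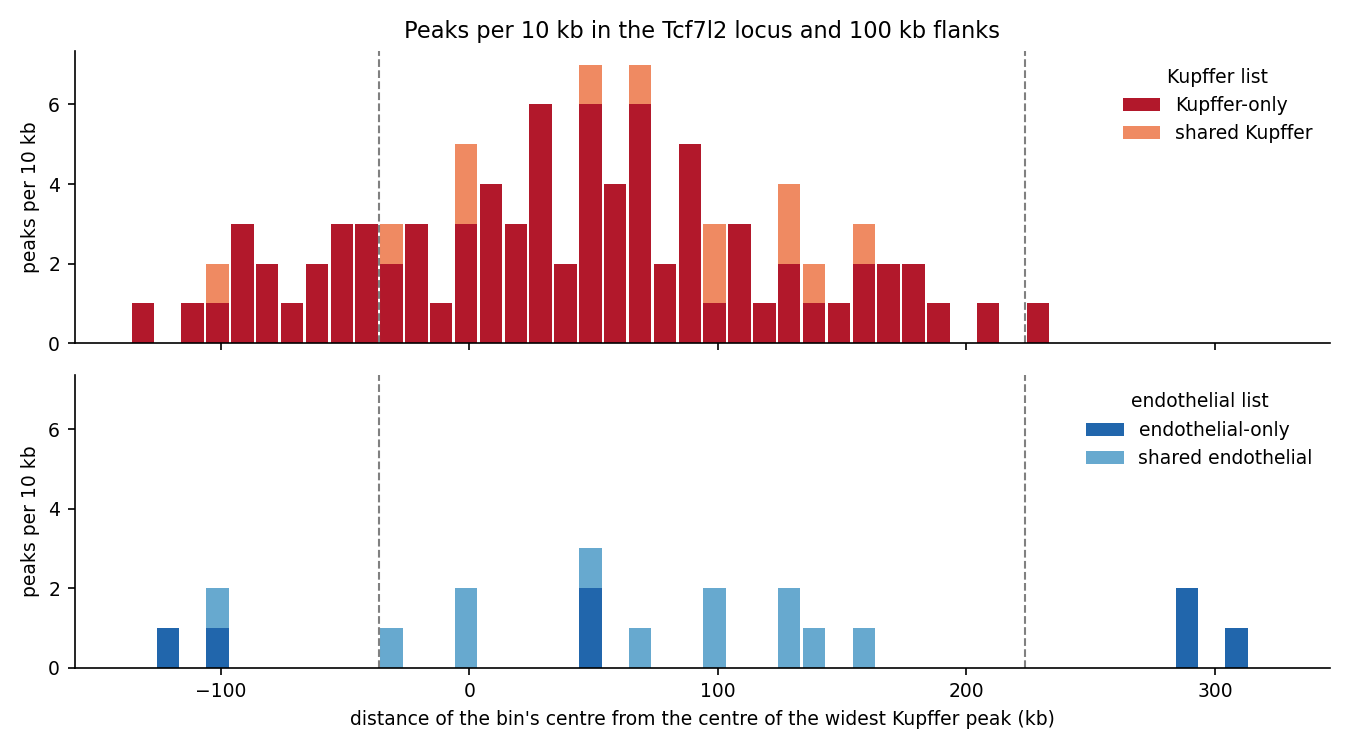
Bars are the number of peaks with their centre in each bin of 10 kb (y axis) against the distance of the bin's centre (kb) from the centre of the widest Kupffer peak, for the Kupffer list above and the endothelial list below. Dashed lines mark the edges of the locus. The fullest bins hold 6 Kupffer-only peaks, and the flank of higher coordinates holds 1 Kupffer-only peak.

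On the fixed grid of 100 kb by which the region was chosen, no window held more Kupffer-only peaks than the 37 of chr19:55800001-55900000, but the order depends on where windows begin. Windows were also moved along chromosomes 1 to 19 and X in steps of 10 kb. Of these, 5 windows of 100 kb, some of which overlap each other, held more than 37. The window of 100 kb with the most Kupffer-only peaks lay inside the locus, at chr19:55810001-55910000, with 41 of them, 4 shared Kupffer peaks and 2 endothelial-only peaks. Of the windows that do not overlap it, the next by count lay at chr2:90320001-90420000 with 38 Kupffer-only and 1 endothelial-only peak, and at chr9:45030001-45130000 with 35 and 2. The median spacing of Kupffer-only centres was 2013.5 bp in the window at Tcf7l2, 2034.5 bp in that on chromosome 2 and 1992 bp in that on chromosome 9. The median widths were 202, 200.5 and 200 bp in the same order, and 91.1%, 86.4% and 89.7% of the Kupffer peaks were Kupffer-only. The 3 windows, all found by their counts of Kupffer-only peaks, thus had similar values of spacing, width and Kupffer-only share. At 260 kb the locus as defined held its 64 Kupffer-only peaks, and 21 windows of that length, many of which overlap each other, held more. The one with the most, 72, was again at Tcf7l2, at chr19:55720001-55980000. Of its Kupffer peaks 86.7% were Kupffer-only. Away from it, chr5:66310001-66570000 held 68, or 78.2% of its Kupffer peaks, and chr2:102590001-102850000 held 65, or 95.6%. The other dense windows thus had a high Kupffer-only share too. They were also found by their counts of Kupffer-only peaks, so this share is not independent of that choice.

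As a share of all distances between neighbours, those of 1 to 5 kb were more frequent in the locus than in the whole list. The share of closer ones was similar. These shares do not count neighbours per base. The locus held 246.2 Kupffer-only peaks per Mb, against 32.5 in the whole list, so close neighbours were more frequent per base there too. Neighbouring Kupffer-only centres were a median of 2908 bp apart (quartiles 1382 and 4947 bp, n = 63 distances), against 5903.5 bp on chromosome 19 and 6995.5 bp in the whole Kupffer list. Distances up to 1 kb made up 17.5% in the locus, close to the 15.9% of the whole list. Those up to 500 bp made up 7.94% in the locus and 8.06% in the whole list. Distances up to 5 kb, however, made up 74.6% in the locus and 41.4% in the whole list, and those over 10 kb made up 7.94% in the locus and 40.7% in the whole list. The locus was chosen for its count of Kupffer-only peaks, so their spacing there is not independent of that choice. The shortest distance was 222.5 bp and the longest 15505 bp. The 5 distances over 10 kb included 2 in succession near the upper edge, between 55995926 and 56024896, and 1 just below the widest Kupffer peak, between 55802027 and 55815454.

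**Figure D3:**
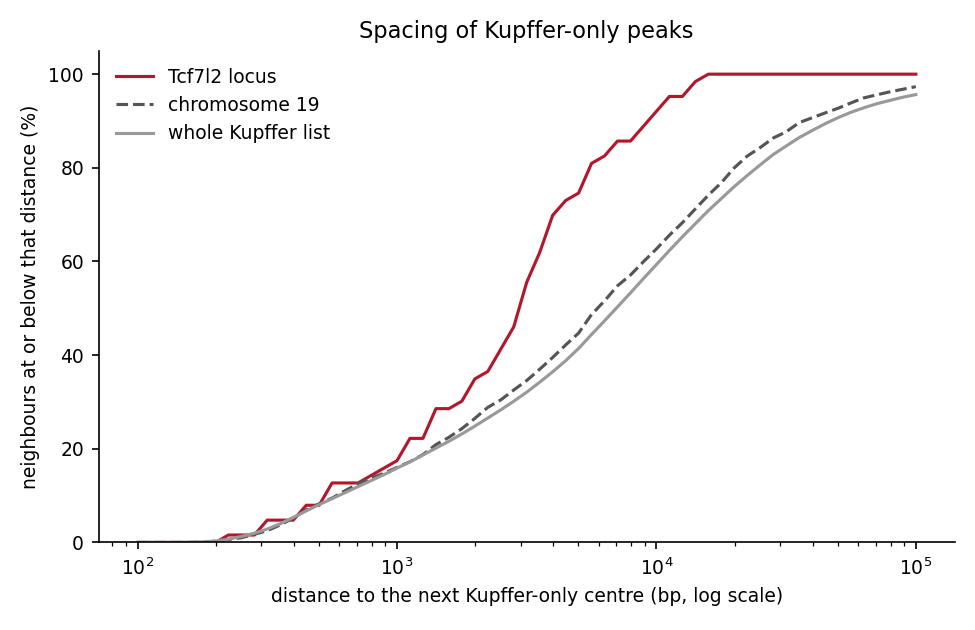
The share of neighbouring Kupffer-only peaks (%, y axis) whose centres lie at or below a given distance (bp, log scale, x axis), in the Tcf7l2 locus (63 distances), on chromosome 19 and in the whole Kupffer list. The 3 curves run together up to about 1 kb, where they stand at 17.5%, 16.0% and 15.9%, and then part, with 74.6%, 44.6% and 41.4% at 5 kb.

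At a cut of 1 kb between centres, close neighbours among Kupffer-only peaks came mostly as pairs. Many peaks of both lists have one and the same width, the smallest common one, called the minimal width here. With centres within 1 kb taken as 1 cluster, the 64 peaks formed 53 clusters, of which 43 were single peaks, 9 held 2 peaks and 1 held 3. The cluster of 3 lay at chr19:55863765-55865801 and included the widest Kupffer-only peak of the locus, chr19:55865425-55865801, of 377 bp. The first centre of the next cluster, of 2 peaks at chr19:55866529-55867257, lay just over 1 kb from that peak's centre. A slightly larger cut would therefore join these clusters. In 5 pairs the centres were within 500 bp. The tightest of them, chr19:55886814-55887023 and chr19:55887066-55887216, left 42 bp between the peaks. In the other 4 pairs the gap was 102 to 205 bp, and in 3 of the 5 pairs one peak had the minimal width. All 5 lay between 55815454 and 55887216.

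Long stretches of the locus carried Kupffer-only peaks without any endothelial peak between them. The longest such run inside the region comprised 17 Kupffer-only peaks over 43.4 kb, from 55818771 to 55862154. The next comprised 12 over 25.0 kb, from 55884639 to 55909657. A run of 16 over 60.7 kb, from 55724015 to 55784695, crossed the lower edge with 2 of its peaks inside. Of the 11 runs that touch the locus, 3 had at least 10 peaks, the run across the lower edge included, against 2.11% of the 34938 runs in the genome. The locus was chosen for its count of Kupffer-only peaks, so long runs there are not independent of that choice. The median run was 5 peaks in the locus and 2 in the genome. Runs as long as the longest inside the region also occurred elsewhere: 130 of the 34938 runs in the genome, the one at Tcf7l2 included, had at least 17 peaks. The longest had 59. The gap from a Kupffer-only peak to the nearest endothelial peak had a median of 6342.5 bp in the locus, against 4805.5 bp in the whole list, and was at most 1 kb for 17.2% of the peaks in the locus and 22.5% in the whole list.

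The 2 endothelial-only peaks lay within 5 kb of each other in one of the fullest bins for Kupffer-only peaks. The wider one, chr19:55863402-55863752, of 351 bp, was the widest endothelial peak of the locus. It ended 12 bp before a Kupffer-only peak of 226 bp, chr19:55863765-55863990, which opens the cluster of 3 described above. The other, chr19:55867372-55867522, of the minimal width, lay between a Kupffer-only peak that ended 114 bp before it, chr19:55867068-55867257, and the shared site at 55867703. Both are therefore endothelial-only by the strict definition and have a Kupffer peak within 500 bp. The wider one is also the member just outside the limit of sharing, with its Kupffer neighbour. Just inside that limit is the shared site with the least overlap, 29 bp, between the Kupffer peak chr19:55942596-55942831 and the endothelial peak chr19:55942474-55942624. The shared site with the next smallest overlap had 111 bp.

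The 11 shared sites spanned 181.6 kb of the locus, with 2 Kupffer-only peaks before the first, 54 between them and 8 after the last. Several came close together. The sites at 55816102 and 55818041 were 1.85 kb apart between Kupffer centres, those at 55913740 and 55915357 were 1.67 kb apart, and those at 55940472 and 55942596 were 2.17 kb apart. The other 7 distances between successive sites were 8.44 to 49.6 kb. The longest, between 55818041 and 55867703, contained 22 Kupffer-only peaks. The widest Kupffer peak of the locus was the shared peak chr19:55816102-55816501, of 400 bp, whose endothelial partner chr19:55816057-55816300 was 244 bp wide. Beside it, 2 Kupffer-only peaks lay within 500 bp, at chr19:55815454-55815604 and chr19:55815738-55815947. The first shared site, chr19:55788585-55788811 in Kupffer cells and chr19:55788593-55788793 in endothelial cells, had the whole endothelial peak inside the Kupffer peak.

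At most shared sites one of the partners had the minimal width and the other was wider. How peaks of that width arise is not stated in these sources. At 4 sites the Kupffer peak had the minimal width and the endothelial peak was wider. These were the sites at 55881488, with 278 bp in endothelial cells, at 55913740, with 296 bp, at 55940472, with 301 bp, and at 55970020, with 212 bp. At 4 others the endothelial peak had the minimal width and the Kupffer peak was wider. These were the sites at 55818041, with 215 bp in Kupffer cells, at 55915357, with 257 bp, at 55942596, with 236 bp, and at 55951045, with 219 bp. At 55867703 both peaks had it, and at the sites at 55788585 and 55816102 neither had. Exactly one partner of minimal width was thus found at 8 of 11 sites or 72.7%, against 22.3% of the 54534 overlapping pairs of the whole lists. Widths were not used to choose the locus, but this count was made after the widths had been seen, and 11 sites of 1 locus are not replicates, so no test is given. At the close sites 55913740 and 55915357, and again at 55940472 and 55942596, the site of lower coordinate was wider in endothelial cells and its neighbour was wider in Kupffer cells. At the remaining close sites, 55816102 and 55818041, both were wider in Kupffer cells. Partners overlap by definition, which limits how far apart their centres can lie. The median offset of the centres was 26.5 bp (range 3.5 to 164.5 bp), against 25 bp in the whole lists.

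**Figure D4:**
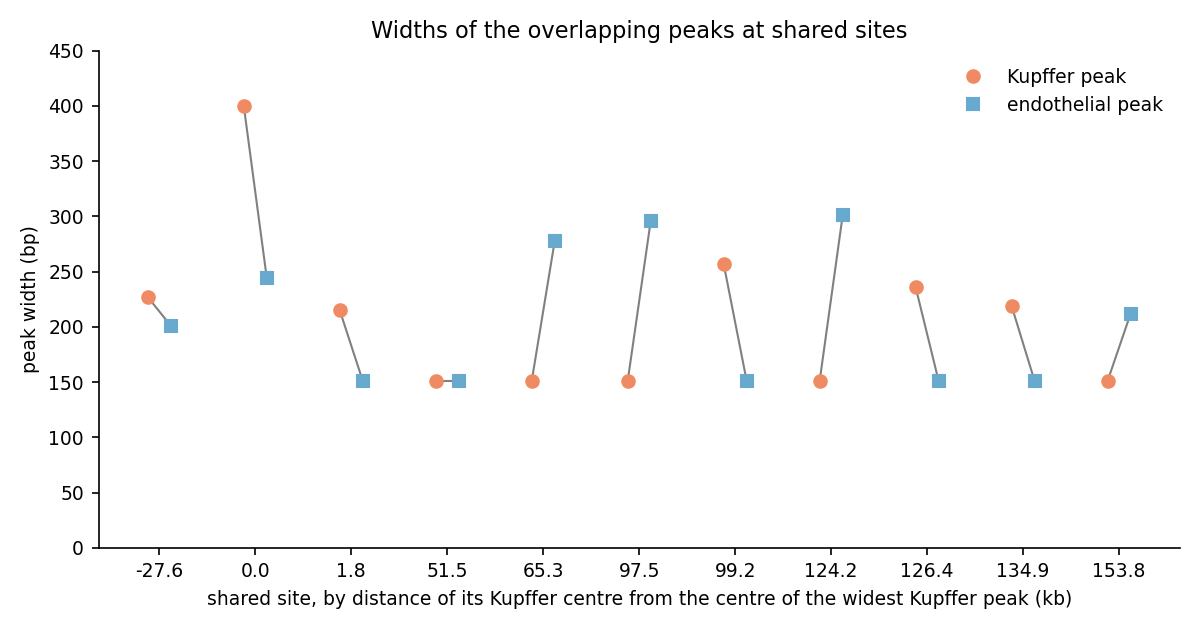
Widths (bp, y axis) of the Kupffer peak (circle) and the endothelial peak (square) at each of the 11 shared sites, ordered along the x axis by the distance of the Kupffer centre (kb) from the centre of the widest Kupffer peak. At 8 sites exactly one partner has the minimal width, the Kupffer peak at 4 and the endothelial peak at 4.

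In width the Kupffer-only peaks of the locus were close to those of the whole list. Their median was 200 bp (quartiles 153 and 227 bp, widest 377 bp, n = 64), against 194 bp (upper quartile 224 bp, lower quartile at the minimal width) for all Kupffer-only peaks. The minimal width was found in 16 of them or 25.0% (15.02% to 37.4%), against 27.4% in the whole list, and 2 or 3.13% were at least 300 bp wide, against 3.26%. The second of these wide peaks, chr19:55894770-55895143, of 374 bp, lay 13064 bp from the nearest endothelial peak. Shared Kupffer peaks had a median of 215 bp in the locus, against 207 bp in the whole list, and shared endothelial peaks one of 201 bp, against 210 bp. Peaks of minimal width were 5 of the 11 shared Kupffer peaks and 5 of the 11 shared endothelial peaks, or 45.5% each (16.7% to 76.6%), against 23.9% and 27.3% in the whole lists. With 11 peaks of 1 locus in each class, these shares are a description only.

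**Figure D5:**
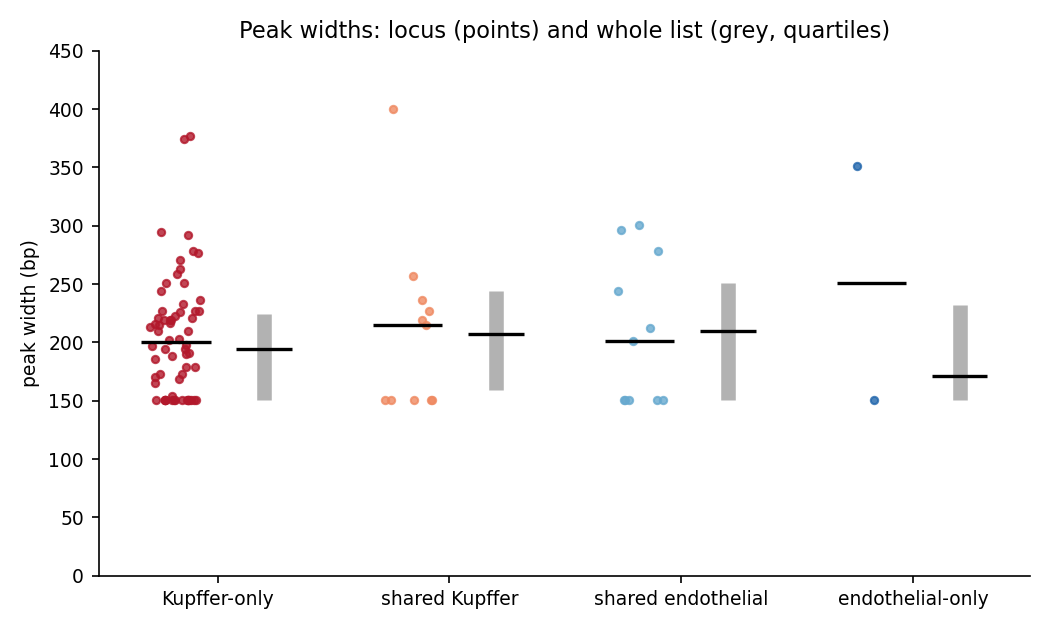
Peak width (bp, y axis) by class: points are the peaks of the Tcf7l2 locus with their median (black line), and the grey bar beside them runs from the lower to the upper quartile of the same class in the whole list, with its median. The medians of Kupffer-only peaks are 200 bp in the locus and 194 bp in the whole list.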

How the data were processed

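The labels describe 32 ATAC-seq libraries. The authors deposited 1 peak list per cell type, each with 3 columns (chromosome, start and end), so the deposited values are positions in bp and carry no other unit. The submitters' processing notes name Bowtie, HOMER and mm9; their versions, the peak threshold, the handling of fragment size and cut position, and how libraries were pooled are not stated in these sources. Per the file names, the peaks are of nucleosome-free regions. Starts were raised by 1, so positions count from 1. The minimal width named in the text is 151 bp.

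Peaks were placed by their centres and classed by an overlap of 1 bp with NumPy 2.4.6 in Python 3.11.15; bedtools 2.31.1 gave the same numbers of shared peaks, 53800 Kupffer and 53324 endothelial. The class procedure was tested on simulated data. Intervals are exact 95% binomial intervals from SciPy 1.17.1. No p-value was computed, since the region was chosen on the counts and peaks are not replicates. The members, classes, windows, chains, runs and alternatives were chosen with earlier results of these data known. Peaks were named by a rule: the outermost and the widest of a class, each endothelial-only peak, each shared site, and the longest runs and tightest clusters. The 13 Wnt pathway genes listed beforehand were not counted, because the gene table is on GRCm38 and no coordinates were moved between builds. Alternatives covered the overlap, peaks of 151 bp, joining, list length, the edges and the bins. No columns of other samples were present.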

Additional observations from a re-analysis of the deposited data

How the results depend on the processing

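Of 60 alternative values from 10 settings, 47 stayed within 1.5 times a count or within the 95% interval of the share or median, and 13 moved further. The number of Kupffer-only peaks ran from 52 to 66 under other overlaps, without peaks of minimal width and with peaks within 500 bp joined, was 43 with peaks within 1000 bp joined, and moved to 42 with the Kupffer list reduced at random, in 1 draw, to the endothelial length. The 2 endothelial-only peaks became 4 when the overlap had to reach 50% of each peak's width, 0 with peaks within 500 bp counted as shared, 5 without peaks of minimal width, 1 with peaks within 500 bp or within 1000 bp joined, and 4 with the reduced Kupffer list. The 11 shared Kupffer peaks became 17 with peaks within 500 bp counted as shared and 2 without peaks of minimal width, which removes a partner at 9 of the 11 sites. The Kupffer-only share was then 96.3%; under the other settings it ran from 77.3% to 88.0%. The median spacing of 2908 bp was 3736 bp with peaks within 1000 bp joined and 3612 bp with the reduced list, and the median width of 200 bp was 221 bp with peaks within 1000 bp joined; these settings remove or merge peaks by construction. The interval of the median spacing was 2302 to 3599 bp and that of the median width 179 to 219 bp. Moving the edges, counting peaks by any base or shifting the bins moved no value beyond these limits. No paired analysis was possible because neither list gives a value for any single library, which also kept replicates from being left out. The unknown depth limits each statement on an uncalled site.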
